A study of Mus musculus with 3 samples.

Results

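The heat shock chaperones described here are 10 genes, Hspa1a, Hspa1b, Dnajb1, Hsph1, Hsp90aa1, Hspe1, Hspb1, Hspa8, Hspd1 and Bag3, out of the 32285 genes in the count matrices. They were taken by symbol, and the group was chosen by the low old-to-young values of Hspa1a and Hspa1b in endothelial cells of these same libraries. Those 2 values are therefore given as a description and support nothing, and the question asked is whether the other retinal cell classes share them. Retinas came from otherwise untreated C57BL/6JRj mice, called young at 3 months, adult at 12 months and old at 23 months. At each age the 4 retinas of 2 mice were digested, the vessels were pelleted and digested again, and the suspension was enriched with magnetic beads for CD31, an endothelial surface protein. It was then profiled by 10x 3' single-cell RNA-seq, which counts captured transcripts as unique molecular identifiers (UMIs). There is 1 library per age, so age and preparation cannot be told apart, no test between ages was possible, and every 95% interval below covers counting error only, not the spread between mice.

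The 3 libraries held 16577026 to 19977238 UMIs. After quality limits 5360 cells were used, at a median of 5964 to 6355.5 UMIs per cell. No library stood apart in depth, and 0 to 2 cell barcodes were shared between any pair of libraries among the cells used. Cells were grouped into 7 classes with at least 30 cells in every library: endothelial cells (432 young, 415 adult and 405 old), pericytes (170, 127 and 105), smooth muscle cells (38, 37 and 37), Müller glia (182, 214 and 206), rods (166, 323 and 238), cones (70, 101 and 71) and bipolar cells (201, 208 and 167). The clusters met 9 of 9 defining markers in endothelial cells, 8 of 8 in pericytes, rods, cones and Müller glia, and 6 of 7 in smooth muscle cells, which also met 4 of 8 pericyte markers. The 6 bipolar clusters met 4 to 8 of 11. A cluster that met both endothelial and pericyte markers (312, 250 and 218 droplets) and a cluster of shallow droplets led by Gm26917, Neat1 and Lars2 that met all 9 endothelial markers (75, 91 and 92) were kept apart and are given beside the endothelial values. Levels are given as CPM, a gene's UMIs as a share of all UMIs of that class in 1 library on the usual scale.

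Heat shock proteins hold unfolded or damaged proteins, refold them or pass them to degradation. The inducible Hsp70 genes are switched on within minutes when the transcription factor HSF1 binds heat shock elements, repeats of the letters GAA and TTC, in their promoters, while the cognate Hsc70 and much of Hsp90 are made at all times. In the retina small heat shock proteins and Hsp70 are known for their response to light, heat and ischemia, and the inducible genes also respond to the warm digestion by which tissues are dissociated.

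Hspa1a and Hspa1b encode the inducible Hsp70 and are near-identical neighbors. In GENCODE M21 (GRCm38, the genome that the labels call mm10) they lie on the minus strand at chr17:34969190-34972156 and chr17:34956436-34959238. Their promoters are shown because the report turns on the pair, and they are almost the same sequence. Over the 300 bases from 250 before to 50 after the start (RefSeq, GRCm38.p6, chr17:34972107-34972406 and chr17:34959189-34959488, minus strand, written 5′ to 3′) they differ at 4 positions, counted from the first base with the Hspa1a base first: C44T, T47C, T249G and C276T. The capitals mark the 2-unit heat shock element, searched as GAANNTTC or TTCNNGAA, which both read the same on either strand.
Hspa1a promoter: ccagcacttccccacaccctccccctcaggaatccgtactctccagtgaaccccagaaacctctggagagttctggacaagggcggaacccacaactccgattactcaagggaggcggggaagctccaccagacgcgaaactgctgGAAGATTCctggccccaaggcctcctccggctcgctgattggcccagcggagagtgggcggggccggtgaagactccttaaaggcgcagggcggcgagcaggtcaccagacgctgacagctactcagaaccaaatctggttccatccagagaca
Hspa1b promoter: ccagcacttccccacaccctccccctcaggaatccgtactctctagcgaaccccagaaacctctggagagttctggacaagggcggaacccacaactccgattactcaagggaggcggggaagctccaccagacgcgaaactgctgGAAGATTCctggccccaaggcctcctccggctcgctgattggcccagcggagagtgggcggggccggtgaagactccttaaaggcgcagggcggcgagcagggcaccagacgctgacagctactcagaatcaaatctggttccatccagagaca

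In both, the element begins 104 bases before the start. Of the 10 genes, 8 had promoter entries (11 in all), and Hsp90aa1 and Hspa8 had none. A 2-unit element was present in 8 of the 11 entries, from 7 of the 8 genes, against 15.1% of 32841 mouse promoters of this length. The 3-unit element, GAANNTTCNNGAA or its reverse complement TTCNNGAANNTTC, which contains 2 overlapping 2-unit elements, was present in 4 entries from 3 genes (Hsph1, Hspe1 and Hspd1), against 0.603% of all. Elements of 4 entries are printed with their start relative to the gene start, beside the single element of the pair. The first 3 are runs of overlapping units and the last is 1 of 2 separate elements in Hspb1.
Hspe1, from base -89: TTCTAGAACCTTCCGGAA
Hspd1, second entry, from base -144: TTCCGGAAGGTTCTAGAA
Hsph1, first entry, from base 36: TTCTGGAAAGTTC
Hspb1, from base -97: GAACCTTC
Hspe1 and Hspd1 lie on opposite strands of chromosome 1, the windows of Hspe1 and of this Hspd1 entry overlap, and the same 18 bases are read from opposite strands in them. Dnajb1 had no element in either entry. A match is a description of letters only and says nothing of whether HSF1 was bound.

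In endothelial cells Hspa1a plus Hspa1b stood at 769, 722 and 379 CPM in the young, adult and old library (values below keep this order). The old library was low and the other two were close together. These sums rest on 2458, 2390 and 1401 UMIs, and the old-to-young ratio was 0.493 (0.461 to 0.526), the value on which the genes were chosen. The adult-to-young ratio was 0.939 (0.888 to 0.994) and the old-to-adult ratio 0.525 (0.491 to 0.561), so nearly all of the difference lay between the later ages. The droplets that also met pericyte markers followed the same order, with 544, 541 and 311 CPM and a ratio of 0.573 (0.532 to 0.616). In the shallow droplets with endothelial markers the pair stood at 753, 554 and 337 CPM, a ratio of 0.448 (0.341 to 0.585). Counting these 2 clusters as endothelial gave a ratio of 0.541.

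Pericytes, the contractile cells that wrap capillaries, shared the low old value but not its timing. They held 579, 332 and 328 CPM of the pair, from 405, 181 and 168 UMIs. Here the young library was high and the adult and old libraries did not differ beyond counting error. The old-to-young ratio was 0.565 (0.469 to 0.678), and over the endothelial ratio it was 1.15 (0.941 to 1.39), an interval that holds 1. The adult-to-young ratio was 0.573 (0.478 to 0.685), which over the endothelial one was 0.610 (0.505 to 0.736). Pericytes of the adult library were therefore already at the old level, while endothelial cells of that library were not. The adult difference depends on which droplets are called pericytes. Assigning each droplet by its own markers enlarges this class to 364, 289 and 244 droplets with 1943, 1757 and 914 pair UMIs, and gave an adult-to-young ratio of 1.01. The pericyte cluster holds far fewer pair UMIs, so most of these came from droplets of other clusters. The cluster with both endothelial and pericyte markers had an adult-to-young ratio of 0.996 (0.939 to 1.06), and its part in the 1.01 was not tested. Dropping cells with markers of another class gave an old-to-young ratio of 0.418 on 73, 50 and 43 cells. The median endothelial marker in the pericyte class stood at 5.80%, 5.19% and 8.61% of its endothelial level, a share that corresponds to 44.6, 37.5 and 32.6 CPM of the pair. Esam was the highest of these markers there, at 66.5%, 73.2% and 78.4%, and the part of endothelial RNA in the pericyte values was not tested.

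By their summed counts, smooth muscle cells and rods did not share the low old value. Smooth muscle cells, which surround arterioles, held 189, 171 and 192 CPM. The 3 intervals overlap, and the old-to-young ratio was 1.02 (0.708 to 1.47). Pericyte marker RNA in this class was at 9301, 8922 and 4715 CPM (in endothelial cells at 1994, 1975 and 1360 CPM), and its part in the pair's values was not tested. Over the endothelial ratio, the old-to-young ratio of the pair in smooth muscle cells was 2.07 (1.43 to 3.00). The class is small, its pair UMIs numbered 58, 53 and 69, and 1 old cell held 22 of them. With every cell given the same weight the levels were 188, 156 and 148 CPM, and with cells thinned to 1500 UMIs, which leaves 13, 6 and 7 pair UMIs, the ratio was 0.553. Rods, the photoreceptors of dim light, held 169, 161 and 166 CPM from 81, 162 and 102 UMIs, the steadiest level of the 7 classes. Their old-to-young ratio was 0.982 (0.727 to 1.33), or 1.99 (1.46 to 2.72) over the endothelial one. The 2 rod clusters gave ratios of 0.787 (0.526 to 1.18) and 1.27 (0.780 to 2.12), both with intervals that hold 1. Endothelial markers in rods were at a median of 0.295% to 0.444% of their endothelial level, which would carry 1.68 to 2.99 CPM.

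Müller glia, the main glial cells of the retina, held the pair at a much lower level, 28.8, 27.3 and 14.9 CPM, with the old library lowest. The old-to-young ratio was 0.518 (0.301 to 0.868) on 48, 53 and 23 UMIs. Its interval leaves out 1 but is wide. Over the endothelial ratio it was 1.05 (0.607 to 1.77), so for the sum a difference from endothelial cells was not detectable at this depth. The low old value lay in Hspa1a, with 38, 28 and 14 UMIs and a ratio of 0.398 (0.199 to 0.751). Hspa1b had 10, 25 and 9 UMIs and a ratio of 0.972 (0.350 to 2.66). Over the endothelial Hspa1b ratio this was 3.11 (1.11 to 8.61), an interval that leaves out 1, on few UMIs. The median endothelial marker in Müller glia was at 0.339% to 0.381% of its endothelial level, which would carry 2.61, 2.57 and 1.45 CPM of the pair. Kdr, which was at 134% to 173% of the endothelial level there, is the exception in that list. Cones, the photoreceptors of daylight, ran the other way with 34.6, 51.4 and 55.3 CPM, on 17, 34 and 27 UMIs. Their ratio of 1.60 (0.840 to 3.13) holds 1, though over the endothelial ratio it was 3.24 (1.7 to 6.37). Its direction turned when cells were thinned to 1500 UMIs, where 5, 7 and 2 pair UMIs gave 0.400. Young cones also carried erythroid marker RNA at 15057 CPM against 31.8 and 22.5 CPM at the later ages, and its part in the ratio was not tested. Bipolar cells, the interneurons that follow the photoreceptors, had the lowest level, 9.14, 6.35 and 6.36 CPM on 12, 9 and 7 UMIs. The endothelial marker RNA in that class would itself carry 8.51, 5.61 and 1.996 CPM. The ratio of 0.696 (0.232 to 1.92) therefore says little of these cells.

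**Figure D1:**
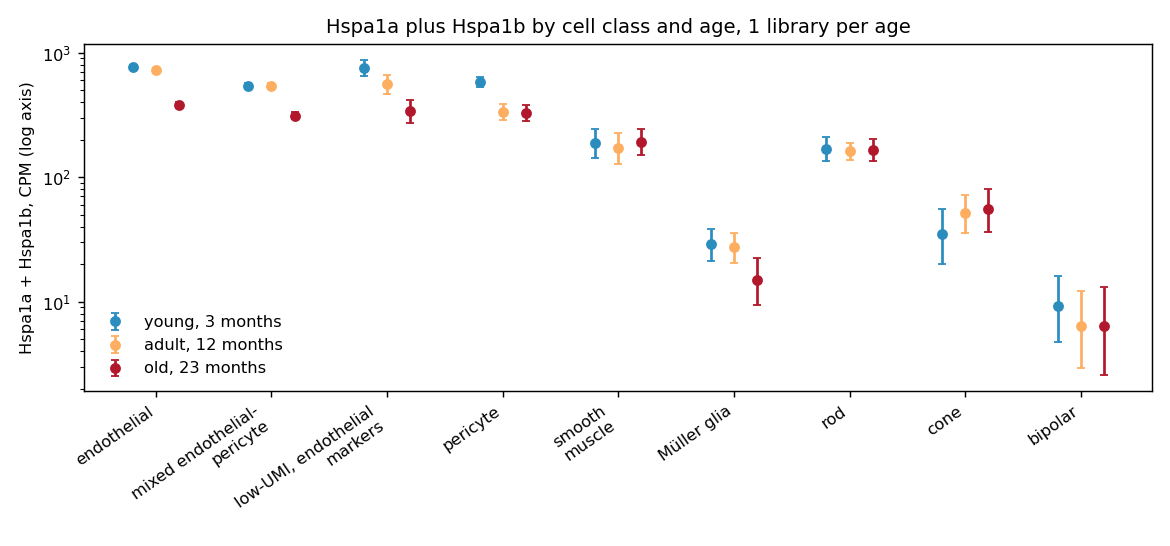
Summed Hspa1a plus Hspa1b level in CPM (log axis) in 9 cell populations, with the young, adult and old library as colored points and exact 95% Poisson intervals as bars. The old point is lowest in endothelial cells (379 CPM) and in both endothelial-marker clusters beside them, pericytes are already low in the adult library (332 CPM), and smooth muscle cells and rods stay level.

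At a threshold of 1.5-fold, the pair was lower in old than in young libraries in 3 of the 7 classes, endothelial cells, pericytes and Müller glia, the last of them on the 48, 53 and 23 UMIs given above. The Müller value lay in Hspa1a, since Hspa1b had a ratio of 0.972 there. The Müller call ends after thinning to 1500 UMIs, where 6 young and 4 old UMIs gave a ratio of 0.670. Subtracting free RNA, put at 18.2 to 27.9% of Müller RNA from rod markers, left 0 of the pair's UMIs there. That free RNA profile includes endothelial RNA, yet the median endothelial marker in Müller glia was at 0.339% to 0.381% of its endothelial level. The subtraction therefore cannot decide the Müller call. In smooth muscle cells, rods and cones the class's own interval (from 0.708, 0.727 and 0.840 upward) left out a level 1.5-fold lower. Of these 3, rods alone stayed above that level under every alternative run, since thinning gave 0.553 in smooth muscle cells and 0.400 in cones. Subtracting free RNA gave no cone value. Cones themselves met 2 of 8 rod markers, so the rod-marker estimate was 100% there at every age and removed the UMIs of every gene. The ratios over the endothelial ratio, above and below, contain the value on which the genes were chosen and are given as a description. In level, endothelial cells came first, followed by pericytes, smooth muscle cells, rods, cones, Müller glia and bipolar cells. Intervals of endothelial cells and pericytes overlapped in the old library only. Those of smooth muscle cells and rods overlapped at every age, those of cones and Müller glia in the young and adult libraries, and those of Müller glia and bipolar cells in the old library.

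The 2 genes of the pair did not keep the same proportion in endothelial cells. Hspa1a stood at 469, 448 and 285 CPM there, a ratio of 0.609 (0.562 to 0.659). Hspa1b stood at 300.1, 275 and 93.6 CPM, a ratio of 0.312 (0.275 to 0.353). The old library was low for both genes, and Hspa1b made up 39.0%, 38.0% and 24.7% of the pair's UMIs. In the droplets that also met pericyte markers the share was 31.1%, 34.9% and 26.6% and the Hspa1b ratio 0.490 (0.425 to 0.563), and in the shallow droplets the share was 43.1%, 52% and 39.5%. Young and old intervals of the share overlap in both, barely in the first. In pericytes Hspa1a was at 436, 249 and 236 CPM and Hspa1b at 143, 82.5 and 91.6 CPM, and the Hspa1b share was level at 24.7%, 24.9% and 28.0%. In rods it was 40.7%, 45.7% and 37.3%, with intervals that overlap. The Hspa1b ratio of pericytes over that of endothelial cells was 2.05 (1.39 to 3.00), and that of rods was 2.88 (1.73 to 4.82). Of the 90-base windows in the last 500 bases of the GENCODE transcripts, where 3' reads fall, 0 of 411 of either gene occur in the other, while 49.3% and 52.3% of windows over the whole Hspa1a and Hspa1b transcripts do. Reads from the transcript ends can thus be assigned, but many of those primed further inside cannot, so the split between the copies is less certain than the sum.

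**Figure D2:**
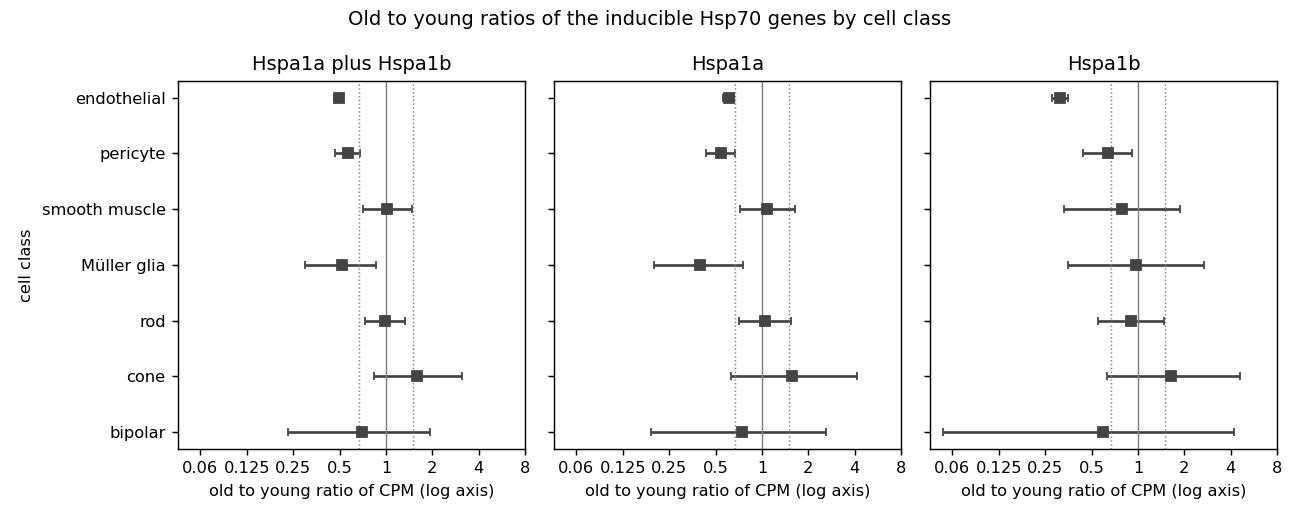
Old-to-young ratio of CPM (log axis) of the summed pair, of Hspa1a and of Hspa1b in 7 cell classes, with exact 95% counting intervals as bars, a solid line at 1 and dotted lines at 1.5-fold. Endothelial cells lie lowest for Hspa1b (0.312), while smooth muscle cells and rods sit near 1 for the sum (1.02 and 0.982).

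The pair was also counted by cell. After thinning every cell to 1500 UMIs, which left out 4 to 6 endothelial cells per library, a UMI of the pair was found in 47.7% of young endothelial cells (42.8 to 52.5). The share was 42.9% (38.1 to 47.9) at the adult age and 27.4% (23.1 to 32.1) at the old age. Unthinned shares were 69.4%, 64.3% and 57.3%, at median depths of 5642.5, 6044 and 7651 UMIs, so the old cells were the deepest. The share with at least 2 UMIs after thinning was 28.4%, 25.9% and 13.0%, and the mean in cells with a UMI 2.33, 2.41 and 2.05. At this fixed depth, cells in which no UMI of the pair was drawn were thus more frequent in the old library, and cells with several UMIs rarer. Without thinning, the 41 to 44 endothelial cells of each library with the most pair UMIs held 46.6%, 51.2% and 57.5% of the pair's UMIs, and single cells reached 70, 56 and 67. Depth is not held equal in these values. In pericytes the thinned share was 39.9%, 37.3% and 36.5%, with overlapping intervals, and the mean in cells with a UMI was 2.20, 1.48 and 1.37. Thinning to 1000 UMIs gave endothelial shares of 36.0%, 33.7% and 22.5% and pericyte shares of 36.1%, 22.1% and 29.8%, so at that depth the adult pericyte share was low, with an interval (15.1 to 30.5) that overlapped the young one (28.9 to 43.8). The difference between the 2 classes in these shares was not tested. In rods the share was 23.0%, 21.0% and 22.4%, and in smooth muscle cells 26.3%, 16.2% and 16.2% with wide intervals. In bipolar cells, which had the lowest pair level, it was 1.01%, 0.485% and 1.83%, so at 1500 UMIs a cell the rod shares were far higher. Unthinned shares were 34.3%, 35.9% and 31.5% in rods and 3.48%, 2.40% and 3.59% in bipolar cells. Rods were the shallower of the 2, at medians of 2152.5 to 2428 UMIs against 6130 to 6610.

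**Figure D3:**
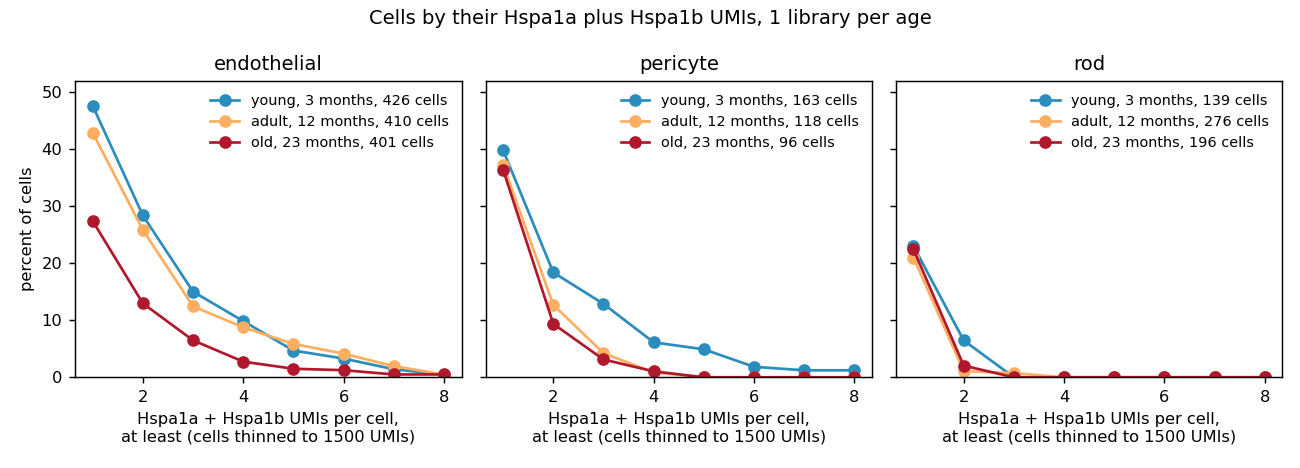
Percent of endothelial cells, pericytes and rods with at least 1 to 8 UMIs of Hspa1a plus Hspa1b after thinning each cell to 1500 UMIs, one line per library. The old endothelial line starts at 27.4% against 47.7% in the young library, whereas the 3 rod lines start together at 21.0% to 23.0%.

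Hspa8 encodes Hsc70, the cognate Hsp70 that cells make at all times. Endothelial cells held 672, 674 and 835 CPM, with the old library high and a ratio of 1.24 (1.17 to 1.31). Pericytes held 459, 512 and 659 CPM, a ratio of 1.43 (1.23 to 1.68), and smooth muscle cells 553, 533 and 760 CPM, a ratio of 1.38 (1.13 to 1.68). In all 3 the old library was highest, though thinning cells to 1500 UMIs turned the direction in smooth muscle cells (log2 ratio of -0.36 against 0.46). The old library was also highest in bipolar cells (885, 951 and 1122 CPM, ratio 1.27, 1.17 to 1.37), cones (875, 959 and 1049 CPM, ratio 1.20, 1.05 to 1.37) and rods (567, 582 and 662 CPM, ratio 1.17, 0.999 to 1.37), whose interval holds 1. Müller glia were the exception with 757, 765 and 730 CPM and a ratio of 0.965 (0.889 to 1.05). None of these ratios reached 1.5-fold.

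Hsp90aa1, the inducible form of cytosolic Hsp90, was highest in photoreceptors. Rods held 3269, 3496 and 2958 CPM, cones 2225, 2354 and 2195 CPM and bipolar cells 1464, 1507 and 1495 CPM. Müller glia held 847, 946 and 814 CPM. The vascular classes were lowest, with 507, 456 and 437 CPM in smooth muscle cells, 309, 409 and 404 CPM in pericytes and 210, 238 and 243 CPM in endothelial cells. Its old-to-young ratios ran from 0.862 (0.686 to 1.08) in smooth muscle cells to 1.31 (1.07 to 1.59) in pericytes, and in endothelial cells the ratio was 1.16 (1.04 to 1.28). The vascular classes, first for Hspa1a plus Hspa1b, thus came last here. Hsp90ab1, its constitutive partner and no member of the 10, differed little with age in endothelial cells, at 1343, 1359 and 1377 CPM, and was lowest in rods, at 194, 172 and 205 CPM.

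Hspb1, a small heat shock protein that binds actin and unfolded clients, was vascular. Smooth muscle cells held 1005, 1225 and 1186 CPM, endothelial cells 997, 947 and 869 CPM and pericytes 426, 506 and 563 CPM. Müller glia held 49.2, 57.6 and 43.4 CPM, and rods, cones and bipolar cells 1.99 to 22.1 CPM. Levels in the last 3 classes rest on 1 to 29 UMIs per library. The old-to-young ratio was 0.871 (0.830 to 0.916) in endothelial cells but 1.32 (1.12 to 1.56) in pericytes and 1.18 (1.02 to 1.37) in smooth muscle cells, so its direction differed between these vascular classes, in none of which the ratio reached 1.5-fold. In smooth muscle cells it turned after thinning to 1500 UMIs (log2 ratio of -0.03 against 0.24). Bipolar cells had a ratio of 0.247 (0.0838 to 0.605) on 29 young and 6 old UMIs, and rods and cones had ratios of 3.12 and 3.02 on at most 8 UMIs a library, all under the 60 UMIs asked of a gene for the counts of calls. In endothelial cells it was also the member whose level per cell ran most closely with the pair (Pearson r of 0.180, 0.208 and 0.223 over the cells of the young, adult and old library).

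The co-chaperones of Hsp70 did not share the pair's difference. Dnajb1, the Hsp40 that stimulates the Hsp70 ATPase, stood at 59.1, 46.3 and 51.1 CPM in endothelial cells, a ratio of 0.865 (0.703 to 1.06) whose direction turned after thinning to 1500 UMIs (log2 ratio of 0.18 against -0.21). In pericytes it stood at 28.6, 31.2 and 46.8 CPM, a ratio of 1.64 (0.866 to 3.12) on 20, 17 and 24 UMIs. The pericyte ratio passes 1.5-fold but its interval holds 1, and assigning droplets by their own markers turned its direction. In Müller glia it was at 45.0, 51.5 and 53.8 CPM and in bipolar cells at 16.0, 21.9 and 20.9 CPM, each with a ratio whose interval holds 1. Hsph1, the Hsp110 that exchanges the nucleotide of Hsp70, was highest in cones, at 95.6, 86.2 and 96.3 CPM, against 22.8, 25.7 and 22.7 CPM in Müller glia, 22.8, 26.1 and 20.001 CPM in bipolar cells and 10.3, 11.2 and 10.6 CPM in endothelial cells. The cone level was steady with age, a ratio of 1.01 (0.658 to 1.54). Bag3, which links Hsp70 to selective autophagy, stood at 30.04, 27.5 and 26.8 CPM in endothelial cells, a ratio of 0.892 (0.667 to 1.19), and at 20.4, 16.98 and 15.6 CPM in Müller glia. In cones it had 0 UMIs in every library, which allows up to 4.54 to 6.14 CPM, and in rods 0, 0 and 1 UMI.

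The mitochondrial pair Hspd1 (Hsp60) and Hspe1 (its lid, Hsp10) have overlapping promoter windows. In endothelial cells Hspd1 stood at 82.3, 87.7 and 89.3 CPM and Hspe1 at 84.2, 81.0 and 88.7 CPM. Their ratios of 1.08 (0.920 to 1.28) and 1.05 (0.895 to 1.24) both hold 1. In the shallow droplets with endothelial markers Hspd1 stood at 36.1, 97.6 and 121.6 CPM, a ratio of 3.37 (1.52 to 8.49) on 8 young and 31 old UMIs. Levels of Hspe1 were highest in bipolar cells (231, 212 and 253 CPM), and its largest ratio was in cones, 1.40 (1.02 to 1.94), from 140, 175 and 197 CPM. Hspd1 was at 97.2, 87.0 and 77.1 CPM in Müller glia, a ratio of 0.794 (0.621 to 1.01), its lowest.

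**Figure D4:**
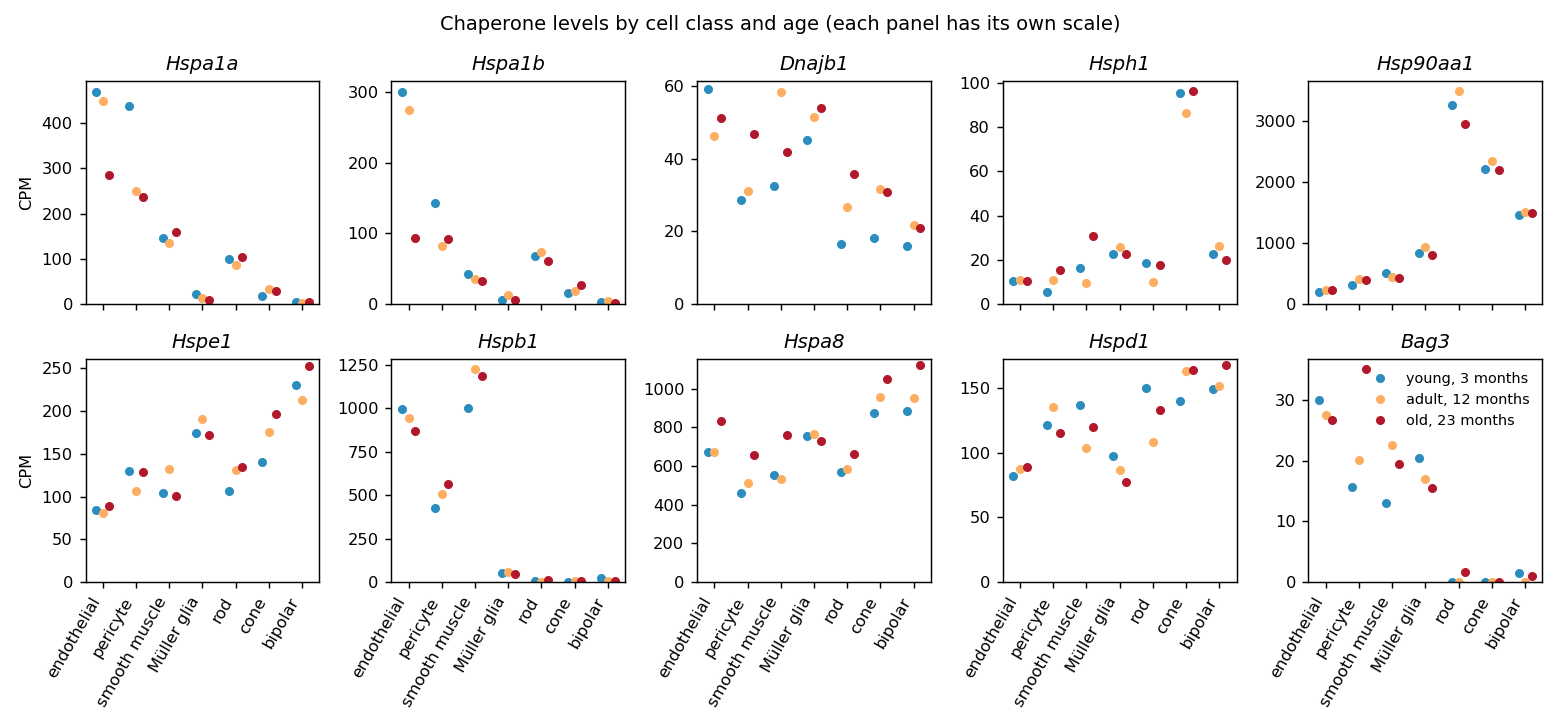
CPM of each of the 10 chaperones in 7 cell classes, one point per library, each panel on its own linear scale from 0. Hspa1a and Hspa1b are highest in endothelial cells and pericytes, Hspb1 in smooth muscle and endothelial cells, Hsp90aa1 in rods (2958 to 3496 CPM), Hsph1 in cones, and only the first 2 separate the old from the young library widely in endothelial cells.

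A gene was counted in a class where it had at least 60 UMIs over the 3 libraries, and called where the old-to-young ratio reached 1.5-fold in either direction. In endothelial cells all 10 members could be counted, 2 were called lower (Hspa1a and Hspa1b, which the choice of genes fixes) and 0 higher, where 3.62% and 5.31% of 9427 genes were called lower and higher. In pericytes 2 of 8 (again the pair) were called lower, against 5.48% of genes, and 1 of 8 (Dnajb1) higher, against 8.72%. In Müller glia 1 of 9 (Hspa1a) was lower, against 4.65%, and 0 higher, against 6.13%. No member was called in smooth muscle cells (6 counted, background 5.18% lower and 10.2% higher), rods (6 counted, 7.47% and 8.12%), cones (5 counted, 5.88% and 7.36%) or bipolar cells (6 counted, 5.89% and 4.49%). Low counts kept members out: Bag3 was counted only in endothelial cells and Müller glia, and neither gene of the pair in cones or bipolar cells. Over all members with UMIs in both libraries, the median log2 ratio was -0.07 in endothelial cells, 0.39 in pericytes, 0.18 in smooth muscle cells, -0.06 in Müller glia, 0.06 in rods, 0.49 in cones and -0.08 in bipolar cells. Medians of all genes counted were 0.01 to 0.09. Over the members with at least 60 UMIs the medians were -0.07 in endothelial cells, 0.18 in pericytes, 0.03 in smooth muscle cells and -0.06 in Müller glia. They were -0.04 in rods, 0.22 in cones and 0.15 in bipolar cells, so their sign turned in rods and bipolar cells.

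**Figure D5:**
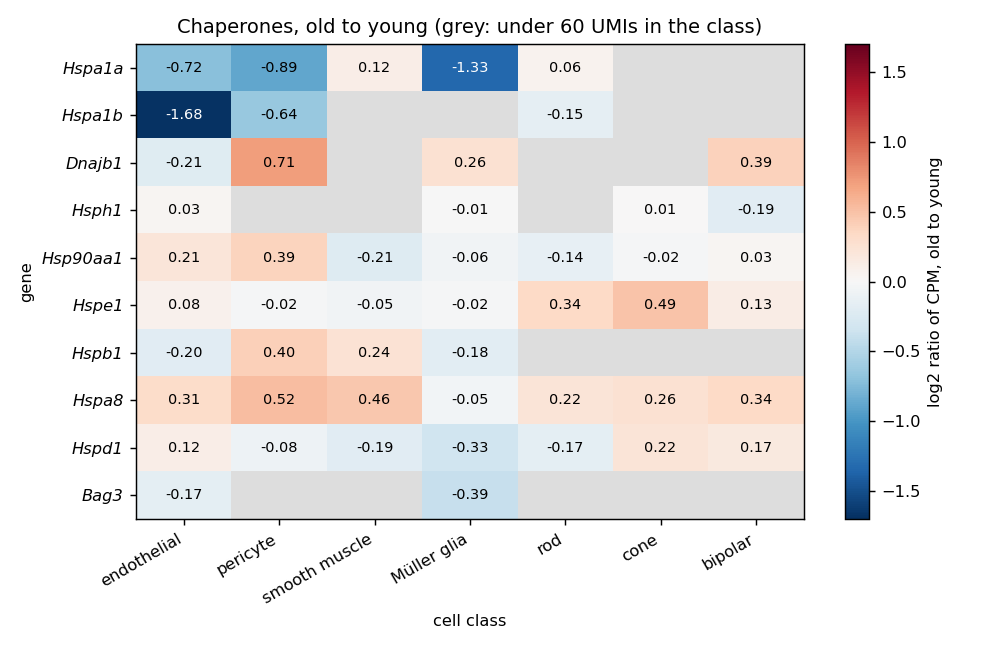
Log2 ratio of CPM, old to young, of the 10 chaperones (rows) in 7 cell classes (columns), blue where lower and red where higher in the old library, gray where a class had under 60 UMIs of the gene. The widest values are Hspa1b in endothelial cells (-1.68) and Hspa1a in Müller glia (-1.33, on 38 young and 14 old UMIs), and the Hspa8 row is red in all columns but Müller glia.

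Other genes of protein folding were read from 4 lists. Of 38 other cytosolic chaperones and cochaperones counted in endothelial cells, 0 were lower and 1 was higher at 1.5-fold, where 3.62% and 5.31% of all genes were, so these counts lie near the background. That gene was Hspb8, a small heat shock protein that works with Bag3, at 16.9, 21.8 and 30.8 CPM with a ratio of 1.83 (1.31 to 2.57). None of 7 regulators of the heat shock response, 7 mitochondrial chaperones or 19 chaperones of the endoplasmic reticulum was called in either direction. Hsf1, the factor that drives the inducible genes, stood at 27.8, 22.7 and 26.0 CPM, a ratio of 0.933 (0.692 to 1.26), and Hsf2 at 12.5, 11.8 and 12.4 CPM. Hspa5, the Hsp70 of the endoplasmic reticulum, was at 196, 192 and 250.3 CPM, a ratio of 1.28 (1.15 to 1.42). The median log2 ratios of these 4 lists were 0.07, -0.01, 0.06 and 0.14, beside 0.02 over all genes counted in that class. In the other classes these 4 lists, of 3 to 36 genes counted, had 0 to 2 lower and 0 to 3 higher members each, where 4.65% to 7.47% of all genes were lower and 4.49% to 10.2% higher. Of the mitochondrial chaperones 2 of 7 were lower in Müller glia (4.65% of all genes). Of the endoplasmic reticulum chaperones 2 of 11 were higher in smooth muscle cells (10.2%). The shorter lists cannot be read against these shares. Dnajb4, an Hsp40, was among the lower ones in pericytes with a ratio of 0.407 (0.244 to 0.656), and Cryab, a small heat shock protein, among the higher ones in rods with 1.92 (1.31 to 2.86). Both were named after their values were seen.

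Of 22 immediate early and dissociation response genes counted in endothelial cells, 1 was lower and 1 higher, near the all-gene shares of 3.62% and 5.31%, and their summed level was 16846, 17616 and 17271 CPM. The lower one was Fosb, an AP-1 subunit, at 886, 657 and 452 CPM with a ratio of 0.510 (0.480 to 0.542). The higher one was Socs3, a feedback inhibitor of cytokine signaling, at 94.8, 130 and 146 CPM with a ratio of 1.54 (1.33 to 1.78). Fos was at 1419, 1414 and 1540 CPM and Jun at 2686, 2846 and 2250 CPM, ratios of 1.09 (1.04 to 1.13) and 0.838 (0.813 to 0.864). In pericytes 2 of 22 were lower (5.48% of all genes), Fosb at 0.423 (0.366 to 0.486) and Jun at 0.610 (0.555 to 0.669), and both were already lower in the adult library, at 1195, 745 and 505 CPM and 2097, 1534 and 1279 CPM. Another 5 were higher there (8.72% of all genes), among them Atf3 and Klf4, named after their values were seen. In smooth muscle cells 0 of 22 were lower and 8 higher, against 5.18% and 10.2% of all genes, and in bipolar cells 7 of 16 were lower and 0 higher, against 5.89% and 4.49%. In rods 0 of 12 were lower and 1 higher (7.47% and 8.12% of all genes) and in Müller glia 1 and 1 of 22 (4.65% and 6.13%), both near the background. In cones 0 of 11 were lower and 3 higher (5.88% and 7.36%). The cold-inducible Cirbp and Rbm3 were at 92.6, 117 and 100.4 CPM and 271, 278 and 302 CPM in endothelial cells, and 0 of the 4 genes of their list was called in that class. The part of the dissociation response in the pair's values was not tested.

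Of the RNA quality list, Malat1, Neat1, Kcnq1ot1 and Meg3, 2 of 3 genes counted were at least 1.5-fold lower in old endothelial cells, 1 of 4 in pericytes, 1 of 3 in smooth muscle cells, 1 of 2 in rods, 1 of 2 in cones and 0 of 4 in Müller glia and in bipolar cells. The shares of all genes called lower in these classes were 3.62% to 7.47%, and lists of 2 to 4 genes are too short to be read against them. Malat1, a nuclear RNA read here as a sign of RNA quality, was at 29432, 29626 and 19255 CPM in endothelial cells, a ratio of 0.654 (0.648 to 0.661), and its ratio was 0.543 in pericytes and 0.563 in smooth muscle cells. Kcnq1ot1, also nuclear, had a ratio of 0.528 (0.437 to 0.636) in endothelial cells, 0.561 (0.375 to 0.832) in rods and 0.594 (0.444 to 0.790) in cones. The median log2 ratio of the list was -0.61 in endothelial cells, -0.45 in Müller glia and -0.38 in bipolar cells. Its summed level was 81897, 81860 and 82237 CPM in Müller glia and 22555, 14145 and 24648 CPM in rods, not lower in the old library in either class. Median mitochondrial shares in endothelial cells were 5.31%, 5.65% and 5.27%. Hemoglobin and other erythroid marker RNA was at 564, 202 and 1373 CPM in endothelial cells and at 20.03, 40.4 and 394 CPM in pericytes. The part of these in the pair's values was not tested.

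Over single endothelial cells, the genes most like Hspa1a plus Hspa1b were Jund, Jun, Hspb1, Dnaja1, Ier3, Ier2, Slc16a1, Junb, Car4 and Cxcl12, by the mean over the libraries of the Pearson correlation of log-scaled levels among 6638 genes. Mean r was 0.339 for Jund, 0.322 for Jun and 0.204 or lower for the rest, so the likeness was weak beyond the first 2, and cells share depth as well as state. Within the pair, Hspa1a and Hspa1b gave r of 0.540, 0.614 and 0.487 over 432, 415 and 405 cells. Dnaja1 is an Hsp40, Jund, Jun and Junb are AP-1 subunits, Ier2 and Ier3 immediate early genes, Slc16a1 a lactate carrier, Car4 a carbonic anhydrase and Cxcl12 a chemokine. Their old-to-young ratios ran from 0.832 in Cxcl12 to 1.41 in Ier3, none near the 0.493 of the pair. Of the other members, Hsp90aa1 ranked 160, Hspd1 842, Hspa8 879, Hspe1 3087, Dnajb1 4218 and Bag3 5912, while Hsph1 was in too few cells to rank. Across the 21 class and library sums, Tmsb4x (r = 0.914), Tram1, Hmg20b, Rap1b and Syf2 were most alike among 1531 genes, points that share libraries and are set mainly by cell class.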

How the data were processed

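The values deposited by the authors are raw counts, whole UMIs per gene and droplet, made with Cell Ranger 6.1.2 on mm10 per the submitters' processing notes. The members and gene lists were chosen with earlier results of these data known. Cells with 500 to 6000 genes and 1 to 20% mitochondrial counts were kept, as in the study. Scrublet (scanpy 1.11.5) marked 0.409 to 0.934% of them as doublets, which were left out; so few marks leave other doublets in place, and the mixed clusters were kept apart for that reason. Libraries were integrated with Seurat 5.3.0 (2000 features without any listed gene, 30 components, resolution 0.5). A cluster was named where at least 3 markers of a class were met, with limits set after clusters were seen (20% of cells and 25% of the highest cluster). The bipolar class joins several clusters. B cells, pigment epithelium, amacrine cells, T cells with microglia, lens cells and droplets with erythroid markers had under 30 cells in some library and were not compared.

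Counts were summed per class and library and divided by the class total (CPM). Intervals were exact at 95%: Poisson for sums, conditional for ratios and for ratios between classes, Clopper-Pearson for shares (scipy 1.17.1). A count of 0 allows up to 3 counts. Genes with at least 60 UMIs were counted at 1.5-fold. Genes named in the text were the 10 members, list genes past the fold in endothelial cells, 8 genes fixed by name (Hsf1, Hsf2, Hsp90ab1, Hspa5, Fos, Jun, Cirbp and Rbm3) and those of highest likeness, computed on counts per 10000 UMIs in genes found in at least 10% of cells of each library, or on log2(CPM + 10). Dnajb4, Cryab, Atf3, Klf4, Malat1 outside endothelial cells and similar list genes of other classes were named after their values were seen. Ratios and intervals were tested on simulated data. Alternatives were scaling by edgeR 4.0.16 factors (TMM and median of ratios), thinning to 1500 or 1000 UMIs, limits of 1000 genes and 10% mitochondrial counts, doublets kept, classes by each cell's own markers, cells with other markers dropped, free RNA subtracted, other minima (150 UMIs or none) and folds (1.25 and 2).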

Additional observations from a re-analysis of the deposited data

Results flagged for a closer look

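The old-to-young ratio of Hspa1a plus Hspa1b over that of endothelial cells was 2.07 in smooth muscle cells, 1.99 in rods and 3.24 in cones, and the adult-to-young ratio of pericytes over that of endothelial cells was 0.610. These 4 are singled out because, among old-to-young and adult-to-young ratios, the exact counting interval of the difference between the 2 classes leaves out 1. The first 3 contain the endothelial old-to-young value on which the genes were chosen, which partly fixes their distance from 1, so they are a description and no support. Old-to-adult ratios were not screened. Over the endothelial one, these were 1.88 in pericytes, 2.14 in smooth muscle cells, 1.96 in rods and 2.05 in cones, with intervals that also leave out 1. They rest on the same low endothelial old level. With 1 library per age the spread between mice could not be set against them.

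In droplets outside the compared classes, the adult library held the pair at 612 CPM in 24 droplets with endothelial and erythroid markers, against 418 CPM in the young and 87.6 CPM in the old library. In droplets with T cell and microglia markers it was 88.8 CPM in the adult library (30 cells, 23 UMIs), against 14.2 CPM in the young (9 cells, 1 UMI) and 53.7 CPM in the old library (14 cells, 6 UMIs). Both are values of data that no comparison used.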

How the results depend on the processing

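The low old value of the pair in endothelial cells kept its direction under every alternative run, with log2 ratios from -1.09 to -0.89 (main -1.02). The -0.89 came from counting the mixed and shallow clusters as endothelial, an alternative added after the data were seen, as was equal weight for every cell. In rods the ratio stayed between 0.830 and 0.991. In pericytes the old-to-young log2 ratio was -1.26 without cells carrying markers of another class, the adult-to-young one was 0.0161 and that of Dnajb1 -0.14 when droplets were assigned by their own markers, which reversed both. After thinning, smooth muscle cells gave -0.85 (old) and -1.08 (adult), cones reversed to -1.32 in old, and Müller glia gave 0.55 in adult, all on 13 or fewer UMIs a library. In bipolar cells stricter limits gave -2.21 in old, thinning (0.86) and keeping doublets (0.37) turned that direction, and dropping cells with other markers gave -2.37 in adult. The number of classes with the pair at least 1.5-fold lower was 3, and 2 to 4 over the alternatives. Member and class pairs called lower numbered 5, but 8 with no minimum of UMIs and 2 at a fold of 2. Those called higher numbered 1, but 0 at a minimum of 150 UMIs, 10 with no minimum, 9 at a lower fold and 0 at a fold of 2. Of the alternative values of single members and shares, 371 stayed within the counting interval of the reported value, 61 left it and 1 reversed a called value. Among 391 values of single members, 38 had the other sign and 9 of these also left the interval, in endothelial cells only Dnajb1 after thinning (0.18 against -0.21). The cause was not tested.

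Under the stricter limits smooth muscle cells (27 young) and cones (17 young and 23 old) had under 30 cells in at least 1 library, as had smooth muscle cells without cells carrying other markers, so these gave no value. Subtracting free RNA left no pair UMI in Müller glia, cones or bipolar cells. Rod marker RNA there was at 13.3 to 100% of the pooled level, and the pair itself was low. The 100% was that of cones, which themselves met 2 of 8 rod markers. In Müller glia the median endothelial marker was at 0.339% to 0.381% of its endothelial level. The subtraction therefore cannot decide the pair's value in cones or Müller glia. No paired analysis was possible because each age has 1 library. Depth limits the pair in cones, bipolar cells and Müller glia, where it rests on 7 to 53 UMIs a library.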
